A study of Caenorhabditis elegans with 15 samples.

Results

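The genes described here encode the insulin-like peptides of Caenorhabditis elegans. They were taken as every gene whose protein annotation in the deposited table names an INS protein with its number or DAF-28, which gave 37 of the 16196 genes listed. The WBcel235 annotation holds 39 protein-coding genes of this kind, and the other 2, ins-16 and ins-25, were not analysed here. Of the 37 genes, 26 are annotated with the Pfam family of nematode insulin-related peptides of beta type. The rule that chose them uses no expression value, though earlier results of these data were known when it was set.

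The study asked how excess sugar and fat change the transcriptome of the nematode, and whether resveratrol, a plant polyphenol, changes that response. RNA was taken from whole worms of the wild-type strain N2 in the fourth larval stage (L4), in 5 groups of 3 libraries each. The control group received none of the additives, the sucrose group 400 mM sucrose and the stearic acid group stearic acid, a saturated fatty acid. The sucrose-stearic acid group received both, and the resveratrol group received sucrose, stearic acid and resveratrol. No group received resveratrol alone. The labels give 500 mg/mL for stearic acid and for resveratrol, whereas the methods give the same figure in micrograms per mL. Stearic acid was dissolved in ethanol and resveratrol in DMSO. Control medium held cholesterol, which was also dissolved in ethanol, but no solvent control matched in amount is described, so that an additive and its solvent cannot be told apart. The study calls the 3 libraries of a group biological replicates, the labels do not say whether each came from a culture of its own, and p-values here measure the spread between these libraries.

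Insulin-like peptides are short secreted proteins that are made by neurons, intestine and other tissues of the worm and bind the insulin/IGF receptor DAF-2. Agonists such as DAF-28, INS-4 and INS-6 activate the receptor, which keeps the transcription factor DAF-16/FOXO out of the nucleus and favours reproductive growth over dauer arrest. INS-1 and INS-18 are known as antagonists of the receptor. Many of these genes are expressed in a few cells only, and in RNA from whole worms fewer such cells and less RNA per cell cannot be told apart.

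The 15 libraries held 19433436 to 21400063 counts assigned to genes, with a median of 20319650, so that depth differed little between groups. Libraries of the same group differed by more than sampling noise in every pair, with a chi-square per degree of freedom between 6.79 and 67.2. The highest values, 67.2 and 53.7, were those of control replicate 3 against the other control libraries. In that library the insulin-like peptide genes together stood at 100 CPM (counts per 1000000 counts of the library), against 123 and 142 in the other control libraries. Over the other groups their sum was 108 to 137 CPM with sucrose, 146 to 176 with stearic acid, 122 to 127 with both and 107 to 133 with resveratrol.

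Many insulin-like peptide genes were read only a few times in whole worms. Of the 37 genes, 18 averaged at least 10 counts per library, 19 had a count above 0 in all 15 libraries and 6 never exceeded 3 counts in any library. The 5 genes with the most counts held 62% of the counts of the family. Scaled to exon length, the highest level was that of ins-27, with a mean of 45.9 CPM per kb of exon, followed by ins-35 with 39.8 and ins-17 with 35.5. The antagonist gene ins-18 had 27.7 and the agonist gene daf-28 26.8 on this scale. The 5 genes with the highest mean FPKM in the deposited table were ins-27, ins-35, ins-24, ins-30 and ins-17, and ins-24 and ins-30 had 12.1 and 9.47 CPM per kb. At the other end ins-32 was read once in the 15 libraries, ins-12 had 2 counts, ins-23 had 3 and ins-21 had 4. A filter on low counts left 22 genes in at least 1 of 7 tests and 17 in all of them. The 15 genes that were never tested were ins-2, ins-6, ins-9, ins-10, ins-11, ins-12, ins-15, ins-19, ins-20, ins-21, ins-23, ins-31, ins-32, ins-36 and ins-39, none of which exceeded 22 counts in a library. They were fitted only in alternatives, where ins-15 (with no filter), ins-20 (without resveratrol replicate 2) and ins-36 (with limma on FPKM) were each called at least once, from at most 8, 16 and 4 counts in a library.

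**Figure D1:**
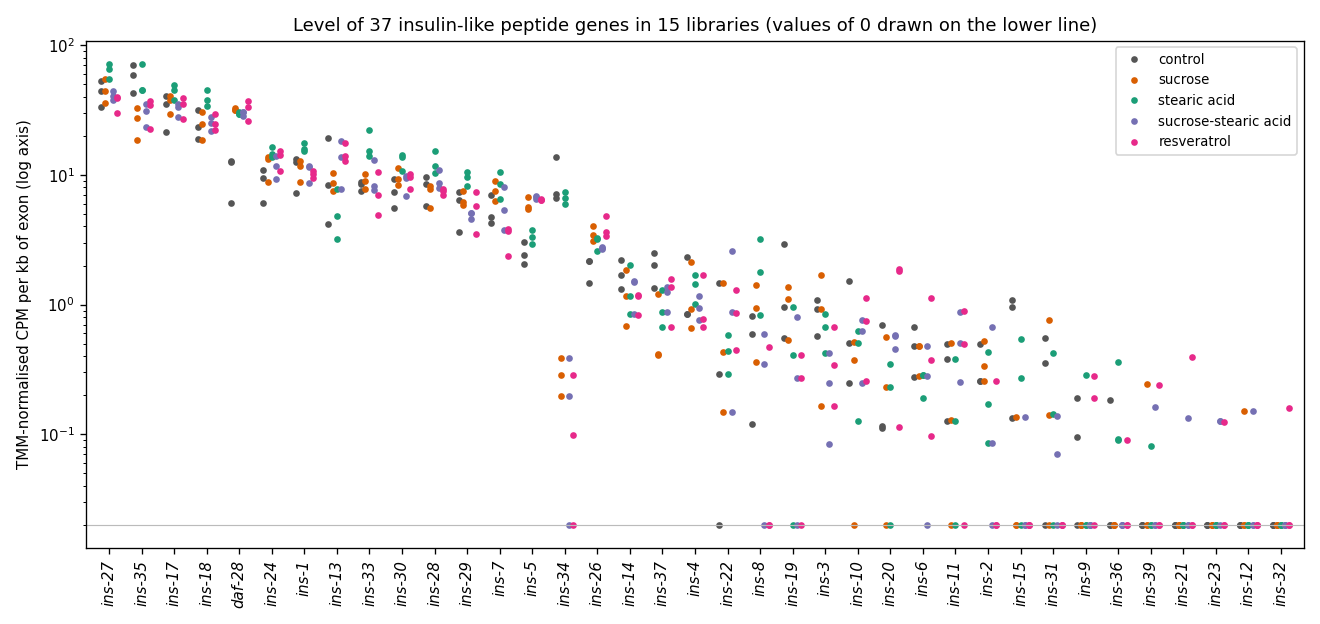
Level of each of the 37 insulin-like peptide genes in each of the 15 libraries, in TMM-normalised CPM per kb of exon on a log axis. Genes are ordered by mean CPM per kb without TMM, and values of 0 are drawn on the lower line. The members fall from ins-27, at a mean of 45.9 CPM per kb without TMM, to ins-32, which was read once. Ins-34 has its lowest values in the 3 groups that received sucrose.

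A gene was called when the edgeR quasi-likelihood test gave an adjusted p of at most 0.05 (Benjamini-Hochberg, over all genes tested) and a change of at least 2-fold. Against the control group, 5 of the 19 members tested were called with sucrose, of which daf-28 and ins-5 were upregulated and ins-34, ins-35 and ins-37 downregulated. Of all 12745 genes tested there, 9.18% were called, 482 up and 688 down. With stearic acid, 2 of 19 members were called, daf-28 and ins-33, both upregulated, and 7.88% of all 12772 genes were called. With sucrose and stearic acid together, 3 of 18 members were called, daf-28 and ins-5 upregulated and ins-34 downregulated, and 9.57% of all 12781 genes were called. The median log2 fold change of the members tested was 0.11 with sucrose, 0.55 with stearic acid and 0.08 with both, and the medians over all genes were -0.02, -0.03 and -0.03. The 3 comparisons used the same control libraries, and their counts of called members were not tested against each other. Single genes were also compared between the sucrose and stearic acid groups and in an interaction test, both given below.

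**Figure D2:**
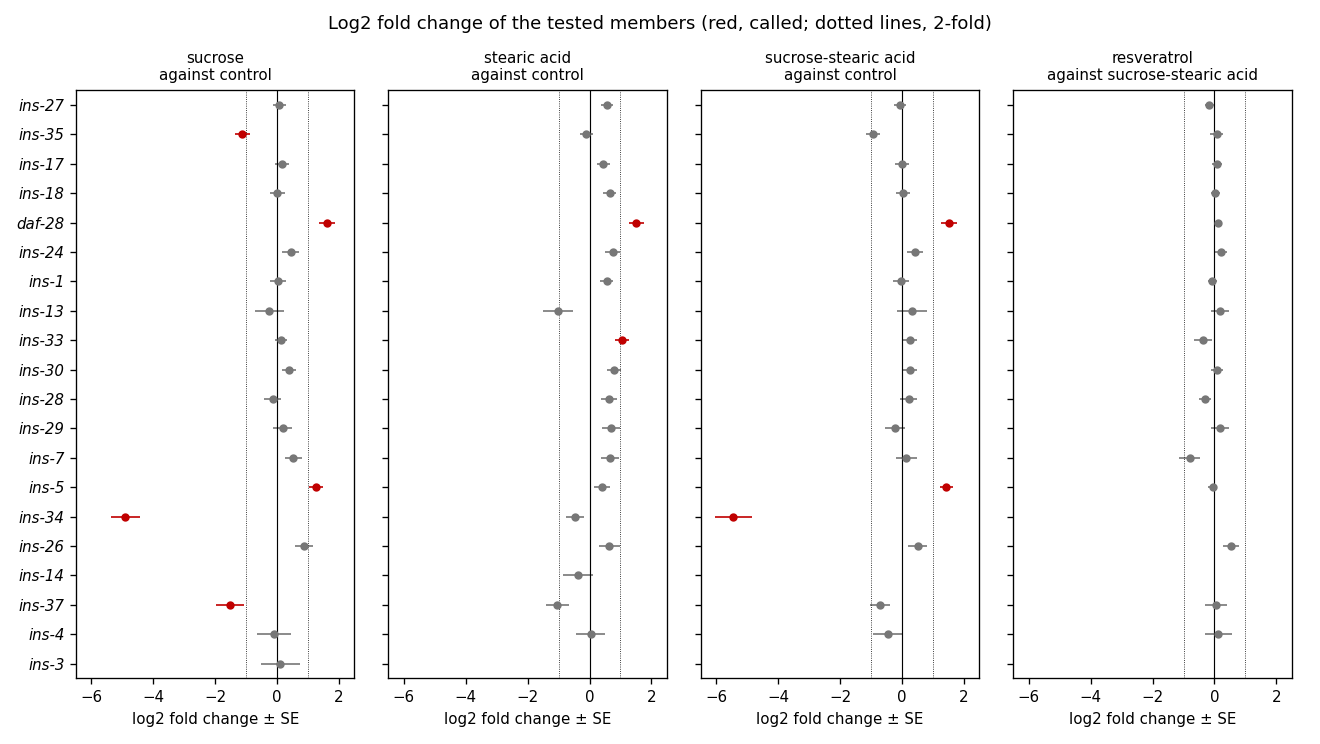
Log2 fold change with its standard error for each member tested in 4 comparisons, with called genes in red and dotted lines at 2-fold. In the resveratrol panel every member tested lies between -0.79 and 0.53.

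Daf-28, which encodes an agonist made in sensory neurons and known to keep larvae from entering the dauer stage, was upregulated with sucrose, with stearic acid and with both. The gene lies at chr V:19815133-19816454 on the forward strand. Its counts were 198, 194 and 96 in the control group, 494, 508 and 487 in the sucrose group and 459, 474 and 459 in the stearic acid group. They were 475, 470 and 449 in the sucrose-stearic acid group and 519, 408 and 564 in the resveratrol group. The lowest of the 12 libraries from treated worms thus had more than the highest control library, with no overlap. After TMM normalisation the level was 8.03 ± 2.94 CPM in the control group (SD, n = 3), 24.5 ± 0.543 with sucrose, 22.9 ± 0.499 with stearic acid and 22.9 ± 0.929 with both. Against the control group, the log2 fold change was 1.62 with sucrose (SE 0.25, edgeR adjusted p = 0.00226), 1.51 with stearic acid (SE 0.24, edgeR adjusted p = 0.000978) and 1.52 with both (SE 0.26, edgeR adjusted p = 0.003). Control replicate 3 had the lowest level of all libraries, and without it these changes were 1.33, 1.24 and 1.25, still called.

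The rise of daf-28 under sucrose and that under stearic acid did not add up in the worms that received both. The interaction term, which is the change with both minus the sum of the changes with each alone, was -1.62 on the log2 scale (SE 0.29, edgeR adjusted p = 0.00206), and without control replicate 3 it was -1.33. The sucrose group and the stearic acid group differed in daf-28 by 0.10 on the log2 scale (SE 0.09, edgeR adjusted p = 0.492). In the interaction test 2 of the 22 members tested had an adjusted p of at most 0.05, daf-28 and ins-30, and 15.6% of all 13094 genes tested did. The other agonist genes of the dauer decision, ins-4 and ins-6, were read far less often. Counts of ins-4 ran from 8 to 28 over all libraries, and its log2 fold change was -0.10 with sucrose (SE 0.56), 0.03 with stearic acid (SE 0.47) and -0.46 with both (SE 0.48). Ins-6, known for its part in leaving the dauer stage, had 0 to 12 counts and was not tested.

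**Figure D3:**
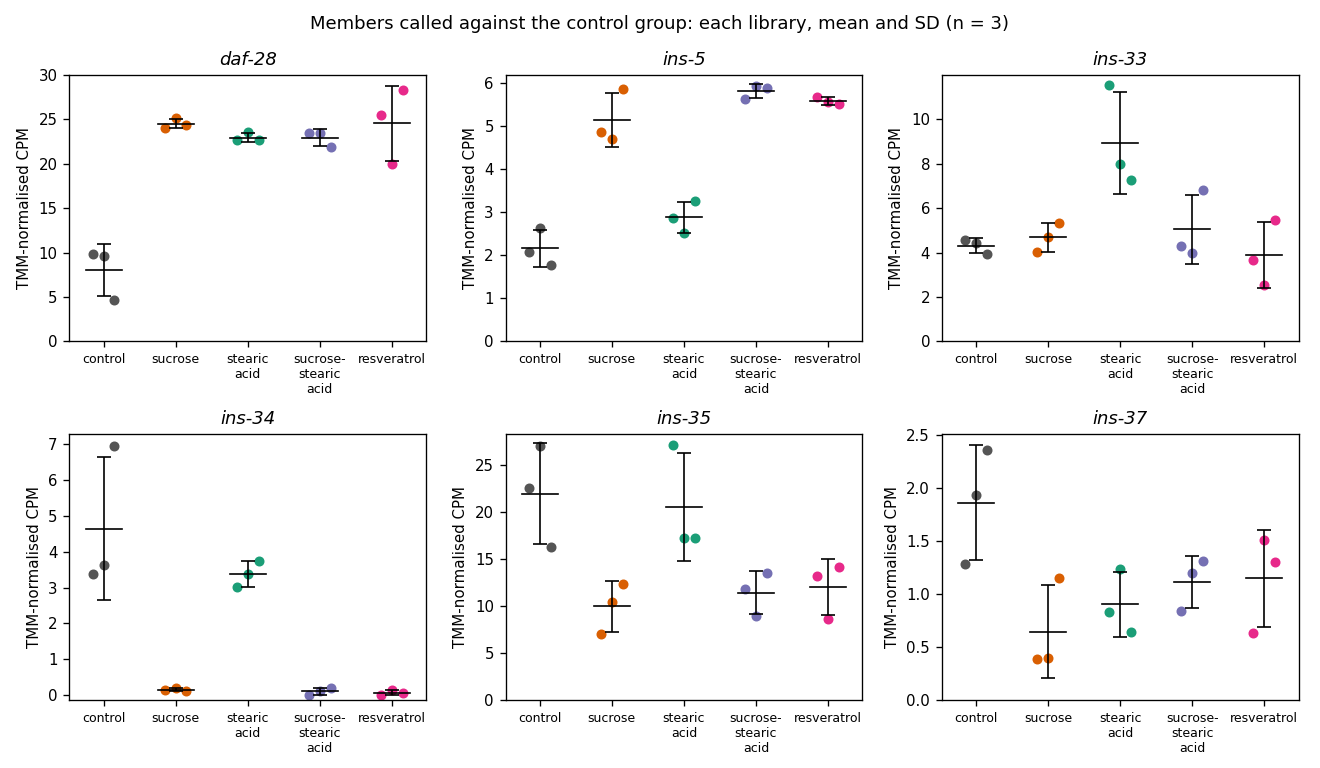
TMM-normalised CPM of the 6 members called against the control group, with a point for each library and the mean and SD of the 3 libraries of each group. Daf-28 is higher in all treated groups, ins-5 is higher and ins-34 and ins-35 are lower in the groups that received sucrose, ins-33 is highest in the stearic acid group and ins-37 has its lowest mean in the sucrose group.

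Ins-34 was almost absent from every group that received sucrose. No role is given for it here. The gene lies at chr IV:14106574-14107737 on the forward strand. Its counts were 68, 73 and 144 in the control group and 61, 68 and 76 in the stearic acid group. In the sucrose group they were 3, 4 and 2, in the sucrose-stearic acid group 0, 2 and 4, and in the resveratrol group 0, 3 and 1. Every library without sucrose was above every library with it, and none of the 9 sucrose-fed libraries exceeded 4 counts. With sucrose, the log2 fold change was -4.91 (SE 0.47, edgeR adjusted p = 0.000149). With both additives it was -5.46 (SE 0.59, edgeR adjusted p = 0.000199), and with stearic acid alone it was -0.47 (SE 0.30, edgeR adjusted p = 0.253).

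Because so few reads remained, the size of the drop in ins-34 is known only within wide limits. From the summed counts, 285 in the control group against 9 in the sucrose group, the control level was 32.4 times as high, with an exact 95% counting interval of 16.8 to 71.5. For the sucrose-stearic acid group the ratio was 47.9 (interval 21.8 to 132), and for the resveratrol group, with 4 counts in all, 73.2 (interval 28.3 to 271). These intervals cover counting error only. The resveratrol group was not compared with the control group in a test. The gene ins-34 shares 82 bp with nkcc-1 on the opposite strand, and their exons overlap. The strand setting of the counting is not given in the sources used here. Nkcc-1 had 2049 to 2707 counts in the 15 libraries, and its log2 fold change was -0.07 with sucrose (SE 0.11).

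Between the sucrose and stearic acid groups ins-34 and ins-35 were the 2 of 19 members called, both lower with sucrose, where 7.92% of all 12677 genes were called. The log2 difference of ins-34 was -4.45 (SE 0.33, edgeR adjusted p = 1.56e-05). In the same comparison ins-5 was 0.83 higher with sucrose (SE 0.19, edgeR adjusted p = 0.00913) and ins-33 0.93 lower, which is under 2-fold for both.

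Ins-5 was upregulated with sucrose and with both additives, and its counts in the resveratrol group lay in a like range. It lies at chr II:5997557-5999023. Its counts were 42, 53 and 37 in the control group and 58, 51 and 66 in the stearic acid group. They were 100, 95 and 117 with sucrose, 114 to 121 with both and 116, 114 and 110 with resveratrol. All 9 libraries with sucrose were above all 6 without it, and control and stearic acid libraries overlapped. Its log2 fold change against the control group was 1.26 with sucrose (SE 0.23, edgeR adjusted p = 0.0048) and 1.44 with both additives (SE 0.22, edgeR adjusted p = 0.00147), and 0.41 with stearic acid (SE 0.27, edgeR adjusted p = 0.273). On the deposited FPKM values the call was lost, with a log2 fold change of 0.63 with sucrose on the log2(FPKM + 1) scale (limma adjusted p = 0.276) and 0.90 with both (limma adjusted p = 0.116). The FPKM value of ins-5 per CPM varied 2.53-fold between libraries, and control replicate 1, with 42 counts, was listed at 14.8 FPKM whereas sucrose replicate 2, with 95 counts, was listed at 13.4.

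Ins-5 sits in a run of 6 members, ins-2 to ins-6 and ins-20, on chr II:5988524-6011321. Its neighbour ins-4 ends 548 bp before the start of ins-5 on the same strand. The other members of the run had few reads, and none of them was called in a pairwise comparison with all libraries. Ins-3, a peptide known to promote the proliferation of the larval germline, had 13, 11 and 7 counts in the control group, 2, 11 and 20 with sucrose, 8, 5 and 10 with stearic acid, 1, 5 and 3 with both and 8, 2 and 4 with resveratrol. These groups overlapped, apart from the control group and the group with both additives. In that comparison ins-3 did not pass the filter on low counts, and it passed and was called down without control replicate 3.

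Ins-35 was downregulated with sucrose. It encodes a peptide of the intestine that is known, with INS-7, to suppress dauer arrest, and it lies at chr V:20375536-20376302. Its counts were 456, 544 and 338 in the control group, 551, 349 and 349 with stearic acid, 146, 211 and 248 with sucrose, 239, 180 and 278 with both and 269, 178 and 284 with resveratrol. Each of the 9 libraries with sucrose was below each of the 6 without it. The log2 fold change with sucrose was -1.13 (SE 0.25, edgeR adjusted p = 0.0119) against the control group and -1.04 (SE 0.23, edgeR adjusted p = 0.00879) against the stearic acid group. With both additives it was -0.93 (SE 0.23, edgeR adjusted p = 0.0192), which passed the adjusted p and not the 2-fold minimum. The change lay near 2-fold, and without control replicate 2 the sucrose value was -0.95 (edgeR adjusted p = 0.0571).

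Ins-7, another intestinal agonist, known to be repressed by DAF-16 in a feedback between tissues, followed another course. Its counts were 40, 36 and 61 in the control group, 55, 64 and 75 with sucrose, 90, 73 and 56 with stearic acid, 46, 32 and 70 with both and 32, 33 and 20 with resveratrol. No pairwise comparison called it by edgeR, whereas limma on either FPKM scale called it up with stearic acid. Its log2 fold change against the control group was 0.52 with sucrose (SE 0.27), 0.67 with stearic acid (SE 0.29) and 0.14 with both (SE 0.34). In the test over all 5 groups its edgeR adjusted p was 0.0155. Its neighbour ins-8 on chromosome IV had 5, 1 and 7 counts in the control group, 8, 12 and 3 with sucrose, 15, 7 and 27 with stearic acid, 5, 0 and 3 with both and 4, 0 and 0 with resveratrol. For ins-8 this test gave an edgeR adjusted p of 0.0317 from counts that reached 10 in only 3 libraries. Ins-11, an intestinal peptide known from learned avoidance of pathogens, had 0 to 7 counts in every group and was not tested.

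The summed level of 5 intestinal marker genes was 683 to 1037 CPM in the control group, 708 to 734 with sucrose, 600 to 605 with stearic acid and 613 to 715 with both. Among them ges-1 was called up and pept-1 called down in each comparison with the control group. The 3 hypodermal marker genes summed to 194 to 234 CPM in the control group and to 367 to 392 with sucrose, 170 to 191 with stearic acid and 346 to 476 with both, so that they were higher in the groups in which ins-34 and ins-35 were lower, and of the 3 genes rol-6 was called up with sucrose and with both additives. The 5 sperm markers summed to 74.7 to 92.4 CPM in the control group, 53.9 to 60.0 with sucrose, 73.3 to 81.1 with stearic acid and 63.1 to 66.6 with both. The 7 oocyte and yolk genes summed to 5658 to 8400 CPM in the control group, 11333 to 12235 with sucrose, 8164 to 10577 with stearic acid and 6498 to 7697 with both. Most of the 7 genes did not follow these sums. Against the control group 3 of them were higher with sucrose, 2 with stearic acid and 1 with both. Their median log2 fold changes were -0.195, -0.358 and -0.305. No marker in these lists was at 0 in any library. The part of tissue composition or larval age in the changes of the insulin-like peptide genes was not tested.

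Ins-37 was downregulated with sucrose, by a margin that depended on single libraries. It lies at chr II:13835101-13836107, where it overlaps F08G2.9 and R05D7.8, and no role is given for it here. Its counts were 26, 39 and 49 in the control group, 8, 8 and 23 with sucrose, 17, 25 and 13 with stearic acid, 17, 24 and 27 with both and 13, 31 and 26 with resveratrol. Neither the sucrose nor the stearic acid libraries overlapped the control libraries, and the lowest control library was within the range of the last 2 groups. The log2 fold change with sucrose was -1.52 (SE 0.46, edgeR adjusted p = 0.049), and the call was lost without any of the 3 control libraries and without sucrose replicate 1 or 2, with values from -1.72 to -1.26. With stearic acid the change was -1.05 (SE 0.37, edgeR adjusted p = 0.0599), past 2-fold and not called. With both additives it was -0.72 (SE 0.33, edgeR adjusted p = 0.168).

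Ins-33 was the other member called with stearic acid. It encodes a peptide that, like INS-3, promotes proliferation of the larval germline, and it lies at chr I:13637845-13639311. Its counts were 234, 161 and 147 in the stearic acid group and 92, 89 and 81 in the control group, without overlap. They were 83, 95 and 106 with sucrose, 87, 80 and 140 with both and 75, 52 and 109 with resveratrol, so that after TMM normalisation every library outside the stearic acid group was below all 3 within it, whereas without TMM 1 library of the group with both (7.17 CPM) was above stearic acid replicate 3 (6.92 CPM). The log2 fold change with stearic acid was 1.05 (SE 0.22, edgeR adjusted p = 0.00662), and it was 0.13 with sucrose (SE 0.20) and 0.25 with both (SE 0.25). Without stearic acid replicate 1, the library with 234 counts, the change was 0.82 (edgeR adjusted p = 0.0411), and without control replicate 3 it was 0.99, both under 2-fold. Of the 2 germline markers found, pgl-1 and glp-1, the summed level was 303 to 361 CPM with stearic acid and 422 to 666 in the control group. It was below the control group in the other groups too, at 311 to 400 CPM with sucrose, 328 to 400 with both and 314 to 392 with resveratrol.

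Apart from ins-33 and daf-28, no member was called with stearic acid by edgeR on all 6 libraries. Fits that left out 1 library also called ins-37 (without control replicate 1), ins-13 (without control replicate 2) or ins-8 (without control replicate 3 or stearic acid replicate 2). Of the 19 members tested there, 14 were higher than in the control group, as were 47.6% of all genes tested. Among the lower members, ins-13 changed by -1.03 on the log2 scale (SE 0.49, edgeR adjusted p = 0.143). Ins-37 changed by -1.05 (SE 0.37, edgeR adjusted p = 0.0599). An unadjusted p under 0.05 was reached by 11 members and by 38.9% of all genes. The 2 called members are 10.5% of those tested, near the 7.88% of all genes. The 6 members of a cluster at chr I:14012369-14037777, which are ins-24, ins-26, ins-27, ins-28, ins-29 and ins-30 within 25409 bp, were all higher, with log2 fold changes from 0.55 to 0.79. The edgeR adjusted p was at most 0.05 for 2 of them, ins-24 (0.0405) and ins-30 (0.0271), and reached 0.184 for the others.

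Ins-27, the member with the highest level, had 276, 330 and 214 counts in the control group, 229, 347 and 275 with sucrose, 453, 342 and 409 with stearic acid, 239, 252 and 282 with both and 254, 190 and 244 with resveratrol. After TMM normalisation the lowest stearic acid library was at 17.0 CPM and the highest control library at 16.4, and without it stearic acid replicate 2 (15.98 CPM) was below control replicate 2 (16.98 CPM), so that the groups overlapped. Its log2 fold change with stearic acid was 0.55 (SE 0.19, edgeR adjusted p = 0.0563). Ins-30 had 100, 126 and 77 counts in the control group, 115, 127 and 151 with sucrose, 146, 192 and 188 with stearic acid, 128, 132 and 96 with both and 133, 107 and 136 with resveratrol. For this gene the change with both additives was 0.95 less on the log2 scale than the sum of the changes with each alone (SE 0.30, edgeR adjusted p = 0.0455), and 14 of 19 alternatives lost this call. Ins-24 had 4.21 ± 1.18 TMM-normalised CPM in the control group (SD, n = 3), 5.67 ± 1.29 with sucrose, 7.09 ± 0.68 with stearic acid, 5.58 ± 1.15 with both and 6.42 ± 1.14 with resveratrol.

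The summed level of the 6 genes of the chromosome I cluster was 29.7, 34.4 and 20.9 CPM in the control group and 47.8, 41.3 and 44.6 in the stearic acid group. It was 26.3 to 36.4 with sucrose, 28.9 to 31.6 with both and 24.99 to 33.03 with resveratrol. The stearic acid libraries were thus above all others. The 11 neuronal marker genes found of 12 listed summed to 721 to 1145 CPM in the control group, with the lowest value in control replicate 3, and to 1296 to 1475 with stearic acid, 931 to 1133 with sucrose, 863 to 1193 with both and 913 to 1232 with resveratrol. All 11 were higher with stearic acid than in the control group, by a median of 0.41 on the log2 scale, and none was called, while 6 had an unadjusted p under 0.05 by edgeR. Of all genes, 47.6% were higher there and 38.9% had such a p. Against the control group 10 of the 11 were also higher with sucrose, by a median of 0.201, and 10 with both, by 0.245. The 3 body wall muscle markers found were all higher with stearic acid too, and 1 of them with sucrose and 1 with both. The part of the neuronal or muscle differences in the levels of the insulin-like peptide genes was not tested.

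**Figure D4:**
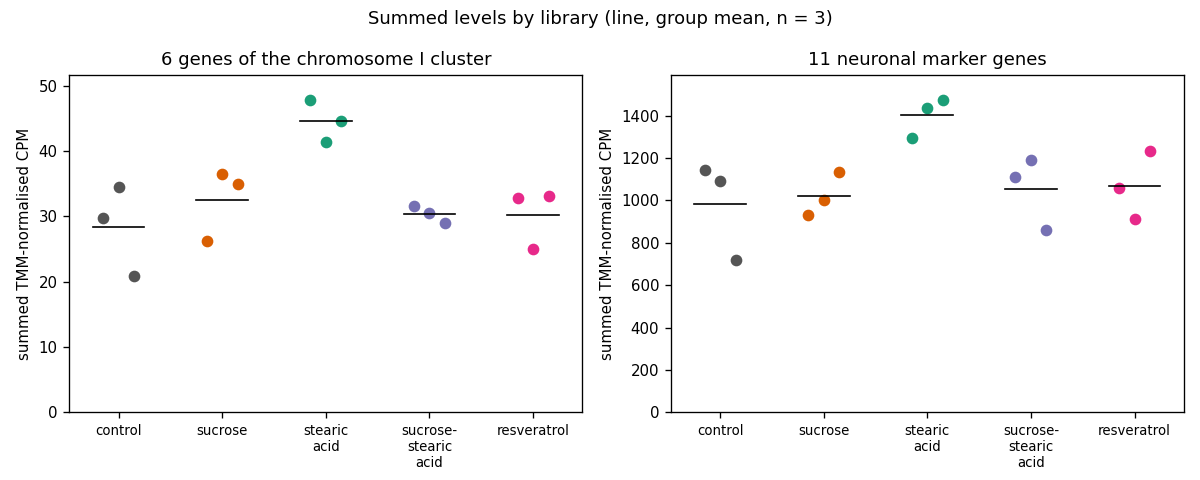
Summed TMM-normalised CPM in each library for the 6 members of the chromosome I cluster (left) and for 11 neuronal marker genes (right), with a line at the mean of each group. In both panels the 3 stearic acid libraries are above all other libraries, and control replicate 3 is the lowest.

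Neither antagonist gene was called in a pairwise comparison by edgeR. Ins-18, at chr I:8147427-8149651, had 204, 277 and 170 counts in the control group, 166, 217 and 265 with sucrose, 333, 297 and 396 with stearic acid, 221, 244 and 193 with both and 217, 196 and 254 with resveratrol. Its log2 fold change with stearic acid was 0.66 (SE 0.21, edgeR adjusted p = 0.0399), under 2-fold, and 0.01 with sucrose and 0.03 with both. Ins-1, at chr IV:10436701-10438412, had 205, 213 and 120 counts in the control group, 146, 208 and 187 with sucrose, 248, 256 and 285 with stearic acid, 189, 186 and 144 with both and 174, 167 and 152 with resveratrol. For ins-1 the stearic acid libraries were above those of all other groups. For ins-18 they were so after TMM normalisation, and without it stearic acid replicate 2 (13.9 CPM) was below control replicate 2 (14.2 CPM). The log2 fold change of ins-1 with stearic acid was 0.55 (SE 0.22, edgeR adjusted p = 0.0877). Ins-17, for which no role is given here, had 249 to 452 counts in the control group, 337 to 451 with sucrose, 428 to 552 with stearic acid, 322 to 391 with both and 308 to 439 with resveratrol, and its log2 fold change with stearic acid was 0.44 (SE 0.21, edgeR adjusted p = 0.142).

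Resveratrol, added to sucrose and stearic acid, led to 0 calls among the 17 members tested by the edgeR quasi-likelihood test, and to 0 by DESeq2 or limma. Of all 12591 genes tested, 2 (0.0159%) were called. The members' log2 fold changes ran from -0.79 to 0.53, with a median of 0.07 against -0.000226 over all genes, and 1 member had an unadjusted p under 0.05. That member was ins-7, at -0.79 (SE 0.34, unadjusted p = 0.0426 and adjusted p = 0.999 by edgeR), where the counts of 32, 33 and 20 with resveratrol overlapped the 46, 32 and 70 without. Daf-28 changed by 0.10 (SE 0.13), ins-5 by -0.05 (SE 0.14) and ins-35 by 0.07 (SE 0.21). For these 3 genes the resveratrol and sucrose-stearic acid libraries overlapped, and ins-34, with 4 counts there, was not tested.

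Over all 5 groups together, 12 of 22 members tested had an edgeR adjusted p of at most 0.05, and 39.8% of all 13177 genes tested did. The smallest values were 8.54e-08 for ins-34, 1.65e-05 for ins-5 and 6.01e-05 for daf-28, followed by 0.00351 for ins-35 and 0.00796 for ins-33. At a threshold of 0.01 these 5 genes were the ones left. The other 7 were ins-7, ins-8, ins-18, ins-26, ins-27, ins-28 and ins-30, with adjusted p between 0.0155 and 0.0483. Of these, ins-26 had 20, 20 and 14 counts in the control group against 29, 32 and 37 with sucrose, 30, 30 and 24 with stearic acid, 25, 25 and 26 with both and 45, 34 and 31 with resveratrol, so that every library of a treated group was above the control group. Ins-28, in the chromosome I cluster, had 62, 70 and 43 counts in the control group, 41, 57 and 59 with sucrose, 111, 75 and 85 with stearic acid, 80, 57 and 64 with both and 57, 52 and 54 with resveratrol. Its stearic acid and control libraries were apart after TMM normalisation and overlapped without it, at 3.51 CPM in stearic acid replicate 2 and 3.60 CPM in control replicate 2.

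The genes of the signalling route downstream of the peptides were described as lists. Of 13 genes of the insulin pathway found of 17 listed, from the receptor gene daf-2 to daf-16, 0 were called against the control group by edgeR. An unadjusted p under 0.05 was reached by 2 with sucrose, 4 with stearic acid and 3 with both. Of all genes tested, 31.7%, 38.9% and 31.7% reached it in these comparisons. With resveratrol 0 were called and 0 had an unadjusted p under 0.05, which 4.39% of all genes had. Between the sucrose and stearic acid groups 1 of the 13 was called, beside 7.92% of all genes. This was skn-1, which encodes a transcription factor of the stress response and was lower with sucrose (log2 difference -1.11). Pdk-1, which encodes a kinase downstream of the receptor, and skn-1 had an interaction term past the threshold, both -0.61. They are 2 of the 13 genes, and 15.6% of all genes passed. Of 11 genes of peptide processing and secretion found of 12 listed, 0 were called in a pairwise comparison by edgeR. Against the control group 0 with sucrose, 6 with stearic acid and 0 with both had an unadjusted p under 0.05. The shares of all genes were, as above, 31.7%, 38.9% and 31.7%. Aex-3, whose product acts in vesicle release, had an interaction term of -0.68. Over the 5 groups, 7 of the 13 and 3 of the 11 had an edgeR adjusted p of at most 0.05, against the 39.8% of all genes. These lists were fitted with edgeR only.

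Of 8 genes known to be activated by DAF-16 that were found of 10 listed, 2 were called with stearic acid against the control group, both upregulated, beside 7.88% of all genes. They were ftn-1, encoding ferritin, at a log2 fold change of 1.53, and lys-7, encoding a lysozyme, at 1.65. With sucrose and with both additives 0 were called by edgeR, and 3 and 6 had an unadjusted p under 0.05. Of all genes, 31.7% had such a p in each of these comparisons. Between the sucrose and stearic acid groups 5 of the 8 were called, beside 7.92% of all genes, all lower with sucrose, namely mtl-1 (-1.58), hsp-16.2 (-1.72), dod-3 (-1.67), ftn-1 (-1.04) and lys-7 (-1.09). The summed level of the 8 genes was 669 to 931 CPM in the control group, 814 to 1240 with sucrose, 1782 to 2158 with stearic acid, 949 to 999 with both and 807 to 1056 with resveratrol, with the stearic acid libraries above all others. Single genes did not all follow these sums. Against the control group 3 of the 8 were higher with sucrose, 7 with stearic acid and 4 with both. Their median log2 fold changes were -0.37, 0.761 and -0.225.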

How the data were processed

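Worm RNA from 15 libraries was sequenced by the study on an Illumina HiSeq X instrument. The authors mapped clean reads to WBcel235 with TopHat and deposited, for each gene and library, whole-number counts that were not normalized and FPKM values. The counter and its strand setting are not given in the sources used here. The deposited FPKM values, scaled to transcript length and depth, entered only as an alternative. The 12 columns of the authors' comparisons, which hold fold changes and p-values, were not used.

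Counts were tested with edgeR 4.0.16 (TMM, filterByExpr with a minimum count of 10, glmQLFit, glmQLFTest, R 4.3.3) on the 6 libraries of each pair of groups, the 12 of the interaction or all 15. The standard error is the log2 fold change divided by the root of the F statistic. The script was tested on simulated data. An exact permutation test of 3 against 3 libraries cannot go below p = 0.10, so none is given. Alternatives were RLE size factors, no filter, DESeq2 1.42.0, limma 3.58.1 on log2(FPKM + 1) and log2(FPKM + 0.1) with FPKM of at least 1 in 3 libraries, other thresholds, 1 fit of all libraries, the replicate number as a block, and leaving out each library. Replicate numbers did not pair the samples: the correlation of same-numbered libraries' deviations had a median of -0.008 over 30 pairs. Positions come from the WBcel235 annotation.

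Genes were named with their values if called in a test, if among the 5 with the highest mean FPKM, or if they were daf-28, ins-1, ins-3, ins-4, ins-6, ins-7, ins-11, ins-18, ins-33 or ins-35. The members, lists and tests were chosen with earlier results of these data known. Peptide and promoter sequences were not analysed here.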

Additional observations from a re-analysis of the deposited data

Results flagged for a closer look

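The comparison of the sucrose group with the stearic acid group asks whether these groups differ in level. The interaction test asks whether the change with both additives differs from the sum of the changes with each alone. In these tests 4 members passed, 2 of 19 in the first and 2 of 22 in the second. Of all genes, 7.92% and 15.6% passed. Ins-34 and ins-35 differed between the sucrose and stearic acid groups, by -4.45 and -1.04 on the log2 scale, lower with sucrose in each of 3 libraries. Daf-28 and ins-30 had an interaction term of -1.62 and -0.95, so that each rose less with both additives than the sum of the changes with each alone. The ins-30 value lost its call in 14 of 19 alternatives. No group had the 4 samples that a test for a distant sample needs.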

How the results depend on the processing

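Leaving out each library in turn gave 3 to 5 called members with sucrose (5 in full), 1 to 3 with stearic acid (2), 3 to 5 with both (3), 1 to 4 between sucrose and stearic acid (2), 1 to 4 for the interaction (2) and 7 to 13 over the 5 groups (12). The lowest counts came without control replicate 2 or sucrose replicate 1 (sucrose), stearic acid replicate 1 (stearic acid), sucrose replicate 1 or stearic acid replicate 1 (between them), and stearic acid replicate 1 or 3 (5 groups). The interaction fell to 1 without sucrose replicate 2, stearic acid replicate 3 or sucrose-stearic acid replicate 1 or 2, and rose to 4 without control replicate 2. Between sucrose and stearic acid it rose to 4 without stearic acid replicate 2. Without control replicate 3, ins-3 and ins-35 joined the 3 members called with both additives. With limma on either FPKM scale the counts were 2 with sucrose, 7 with stearic acid (daf-28, ins-7, ins-8, ins-24, ins-27, ins-30 and ins-33) and 5 for the interaction. At an adjusted p of 0.01 they were 3 with sucrose, 1 for the interaction and 5 over the 5 groups. With no minimum on the fold change they were 5 with stearic acid and 7 between sucrose and stearic acid, of 19 members each, where 22.6% and 24.3% of all genes passed. For the interaction, no filter gave 1 and DESeq2 gave 6. With the replicate number as a block, 1 member (daf-28) had an interaction and 9 differed over the 5 groups. The 5 pairwise counts of calls were the same with the block as without it. Apart from the setting with no minimum on the fold change, the share of all genes called under these alternatives is not given here. The counts of members given here thus do not show by themselves whether a change in them is particular to the members. The cause of these changes was not tested. The resveratrol comparison gave 0 under all alternatives run.

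For the 14 calls of single members, 183 of 218 alternative values kept the call, 35 lost it and 0 reversed. The 6 calls of daf-28 and ins-34 against the control group or between sucrose and stearic acid, and the interaction of daf-28, held in all of theirs.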

Other observations

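The 2 deposited measures of the same gene did not always run together for these short genes. Among the 14 members with at least 20 counts in every library, the FPKM listed per CPM varied over 2-fold between libraries for 6 members, from 2.15-fold for ins-27 to 58.8-fold for ins-13. For ins-13, stearic acid replicate 3 was listed at 71.5 FPKM from 30 counts, and control replicate 3 at 5.28 FPKM from 122 counts. For ins-18, sucrose replicate 2 and resveratrol replicate 1 had 217 counts each and were listed at 29.9 and 96.7 FPKM. Daf-28 varied 1.29-fold. Ins-13 shares 87 bp with acdh-2 on the same strand, and the part of this overlap was not tested.

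Ins-15, which the filter on low counts removed, had 8, 7 and 1 counts in the control group and 4, 0 and 2 with stearic acid, against 0, 1 and 0 with sucrose, 1, 0 and 0 with both and 0, 0 and 0 with resveratrol. With no filter its edgeR adjusted p was 0.0447 over the 5 groups, and between 0.0845 and 0.9995 in the other 6 tests. The gene was picked out after its values were seen.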
